A study of Homo sapiens with 32 samples.

Results

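The m6A peaks of 2 SETD2 knockout clones of the 786-O cell line, SETD2KO-1 and SETD2KO-2, were compared with each other. Both clones lack SETD2, so the comparison measured how far peak calls differed between clones of equal SETD2 status. The 136898 peaks of the 4 immunoprecipitated (IP) libraries, 2 per clone, were merged into 61617 regions wherever they overlapped by at least 1 bp. A region was called clone-specific if both libraries of 1 clone and neither library of the other had a peak in it. By this rule 1711 regions (2.78% of all regions) were SETD2KO-1 specific and 1904 (3.09%) were SETD2KO-2 specific, 3615 in all. Membership was set by the calls in these 4 libraries, so counts, ranks and lengths within them are descriptions, whereas the WT, SETD2KO-1R and RPTEC libraries played no part in the choice.

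Methylated RNA immunoprecipitation-sequencing (MeRIP-seq) was performed in 786-O, a clear cell renal cell carcinoma (ccRCC) line, and in RPTEC, an immortalized renal proximal tubule line, and the series holds 32 samples, of which the 16 IP libraries have a peak list. In each cell line WT stands for the parental cells, SETD2KO-1 and SETD2KO-2 for 2 knockout clones, and SETD2KO-1R for SETD2KO-1 cells that re-expressed a tagged full-length SETD2 and were then derived again as a clone. The 786-O knockouts were made with CRISPR/Cas9, each knockout or rescue group is 1 clone, and no treatment was given. The labels number the libraries of a line 1 and 2 without naming separate cultures, so the spread between them may be technical.

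N6-methyladenosine (m6A) is the most common internal modification of messenger RNA. It is written by the METTL3 and METTL14 methyltransferase complex as RNA is transcribed, removed by FTO and ALKBH5, and read by YTH domain proteins that alter splicing, decay and translation. In most mRNAs it is densest near the stop codon, and antibodies to m6A also bind m6Am, a modified adenosine at the capped start of many transcripts. SETD2 is the methyltransferase that places H3K36me3 on the bodies of transcribed genes, and METTL14 can bind that mark.

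The sets differed in their share of regions over gene starts, a difference of 3.98 points that became 0.46 or −1.75 with single libraries left out. The sequence around the start is shown for the 3 protein-coding genes of each clone whose start lay in the clone-specific region of highest rank. Each line gives 60 bases before the start in lower case and the 30 transcribed bases that follow in capitals, 5′ to 3′ on the gene's strand, from RefSeq (GRCh38.p14). The first 3 are SETD2KO-1 specific, at chr19:14117733-14117822 (minus strand), chr17:76072488-76072577 (minus strand) and chr1:167721922-167722011 (plus strand). The other 3 are SETD2KO-2 specific, at chr6:131951343-131951432 (minus strand), chr2:131093431-131093520 (minus strand) and chr14:101964513-101964602 (plus strand).
PRKACA: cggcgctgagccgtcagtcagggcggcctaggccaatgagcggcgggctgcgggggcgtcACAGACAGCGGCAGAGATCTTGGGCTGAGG
SRP68: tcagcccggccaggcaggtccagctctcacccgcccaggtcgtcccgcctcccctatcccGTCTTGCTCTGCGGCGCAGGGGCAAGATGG
MPZL1: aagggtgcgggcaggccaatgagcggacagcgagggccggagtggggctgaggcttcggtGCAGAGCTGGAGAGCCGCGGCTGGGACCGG
CCN2: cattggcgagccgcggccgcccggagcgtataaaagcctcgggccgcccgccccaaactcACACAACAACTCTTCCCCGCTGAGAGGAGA
FAM168B: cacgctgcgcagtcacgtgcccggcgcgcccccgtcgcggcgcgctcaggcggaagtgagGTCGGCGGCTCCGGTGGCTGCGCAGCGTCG
DYNC1H1: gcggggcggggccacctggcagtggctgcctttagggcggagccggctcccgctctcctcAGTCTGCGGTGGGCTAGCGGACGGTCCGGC

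The 4 lists were close in number of peaks between clones and further apart within 1 clone. SETD2KO-1 had 32739 and 35555 peaks in replicates 1 and 2, and SETD2KO-2 had 39670 and 28934. The longest and the shortest list thus both came from SETD2KO-2, and the mean was 34147 ± 1991 (SD, n = 2) for SETD2KO-1 and 34302 ± 7592 (SD, n = 2) for SETD2KO-2. On the log2 scale the clones differed by 0.01, with p = 1 in a two-sided exact permutation test, where 2 libraries against 2 cannot go below 0.333. Median peak length was 421, 393, 432 and 388 bp in the same order. Without counts of reads in the files the depth behind a call is unknown, and intervals given for shares of regions or peaks cover counting error only. Of 10 renal epithelial and ccRCC markers, 9 had a peak in at least 1 of the 4 libraries, CA9 being the exception, whereas none of the 3 endothelial, 4 immune and 3 fibroblast markers had one, nor did ALB or SOX10. Of 6 markers of differentiated proximal tubule, GGT1 and CUBN had a peak. SETD2 itself had 5 and 10 peaks in SETD2KO-1 and 5 and 4 in SETD2KO-2, against 8 and 10 in WT, and peaks on its transcript do not check the knockout.

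Clone-specific regions were a minor class among the combinations of libraries. All 4 libraries shared 12444 regions (20.2%), and 26778 (43.5%) were called in 1 library only. The 4 combinations of 1 library of SETD2KO-1 with 1 of SETD2KO-2 held 8830 regions, from 1080 to 3275 each, compared with 1711 and 1904 for the combinations of libraries of the same clone. Replicate 1 of SETD2KO-2 shared 3174 and 3275 regions with a single SETD2KO-1 library, more than the 1904 it shared with its own replicate alone. Both SETD2KO-1 libraries called 21046 regions, of which 8.13% were clone-specific, and both SETD2KO-2 libraries called 17407, of which 10.9% were. Just outside the rule lay 6891 regions called in both SETD2KO-1 libraries and 1 of SETD2KO-2, of which 5496 were missed by replicate 2 of SETD2KO-2, the shortest list, and 3059 regions called in both SETD2KO-2 libraries and 1 of SETD2KO-1.

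**Figure D1:**
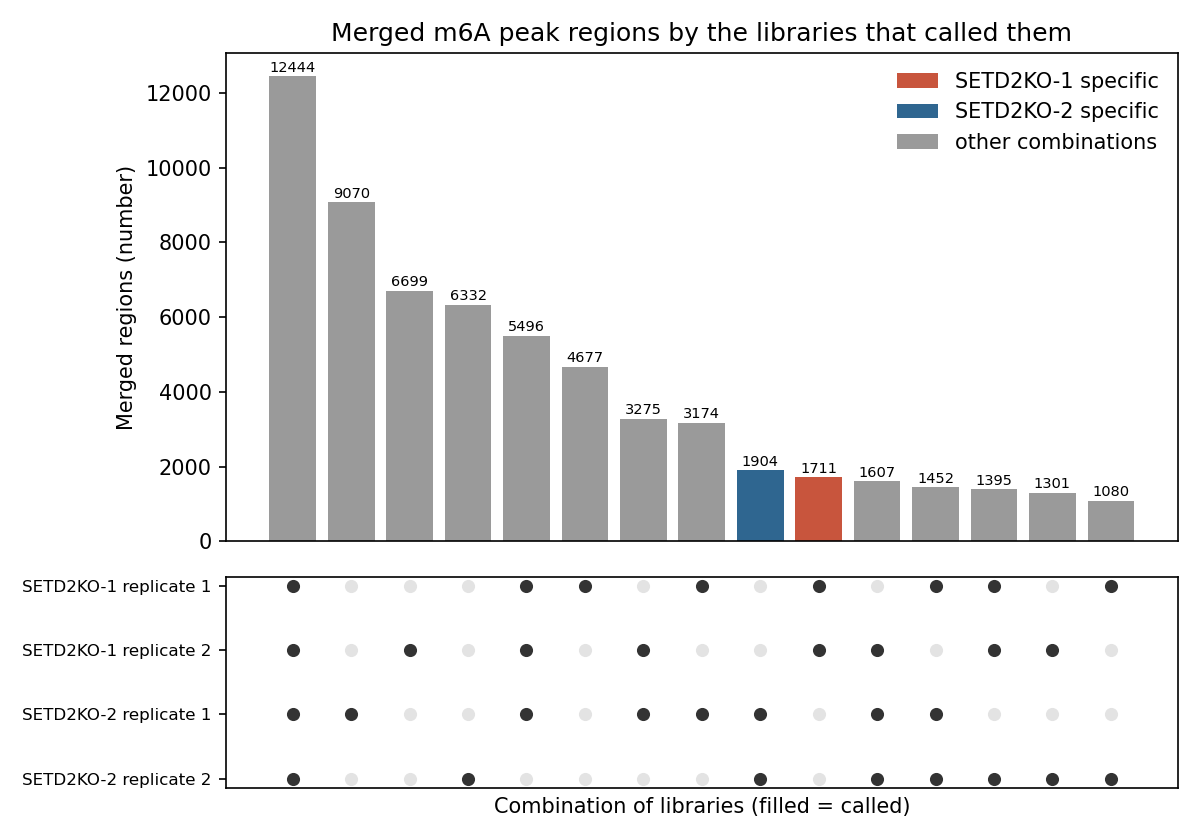
Number of merged regions (vertical axis) for each combination of the 4 libraries, marked by filled points under the bars. The 2 coloured bars, 1904 and 1711 regions, are the clone-specific ones, and both are lower than the bars for SETD2KO-2 replicate 1 with either SETD2KO-1 library (3275 and 3174).

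Overlap measured in base pairs gave no separation of the clones. The Jaccard index, the bases shared by a pair of lists over the bases covered by either, was 0.434 for the SETD2KO-1 pair and 0.312 for the SETD2KO-2 pair, the lowest of the 6 pairs. Between clones it was 0.433, 0.346, 0.413 and 0.340. The mean was 0.373 ± 0.086 (SD, n = 2) for same-clone pairs and 0.383 ± 0.047 (SD, n = 4) for between-clone pairs, and their difference of −0.0103 was smaller than either spread. Whether a library's regions were found more often in its own replicate than in the other clone varied by library. Of the 31429 regions of SETD2KO-1 replicate 1, 67.0% were called in its replicate, 71.8% in SETD2KO-2 replicate 1 and 52.1% in SETD2KO-2 replicate 2, and for SETD2KO-1 replicate 2 these shares were 62.0%, 67.3% and 49.4%. Of the 38422 regions of SETD2KO-2 replicate 1, 45.3% were called in its replicate and 58.7% and 59.4% in the SETD2KO-1 libraries, whereas of the 27515 of SETD2KO-2 replicate 2, 63.3% were called in its replicate and 59.5% and 60.9% in the SETD2KO-1 libraries. Without replicate 1 of SETD2KO-2 the same-clone pair exceeded the between-clone pairs by 0.0906 and without its replicate 2 by 0.0108, and with 1 or the other SETD2KO-1 library left out the difference was −0.0649 and −0.0779.

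The SETD2KO-1R line descends from SETD2KO-1, and WT precedes both clones, so their libraries offered a readout that the rule did not use. SETD2KO-1 specific regions were called in 37.6% (95% Wilson interval 35.3 to 39.9) and 22.4% (20.5 to 24.4) by the SETD2KO-1R libraries and in 32.6% (30.4 to 34.8) and 42.3% (39.9 to 44.6) by the WT libraries. Their mean share was 29.98% ± 10.7 (SD, n = 2) in SETD2KO-1R and 37.4% ± 6.86 (SD, n = 2) in WT, so the descendant did not call the regions of its parent clone more often than WT did. The groups overlapped. SETD2KO-2 specific regions were called in 27.0% and 38.5% by SETD2KO-1R and in 37.0% and 29.9% by WT, with overlapping groups again. Over all 61617 regions the shares were 41.7% and 31.6% in SETD2KO-1R and 40.4% and 44.8% in WT. These include regions called in all 4 libraries and in 1 only. Regions called in 1 library of each clone, likewise a class of 2 calls, had shares of 38.0% and 22.4% in SETD2KO-1R. In WT their shares were 34.4% and 41.9%, so the SETD2KO-1 specific shares were close to those of this class. Both differences between SETD2KO-1R and WT, −7.42 and −0.71 percentage points, were smaller than the distance between the libraries of a line. With peaks under 288 bp left out, they turned to 2.79 and 8.85 points. The shortest peak was 288 bp in both SETD2KO-1R libraries and 264 and 236 bp in the WT libraries. That cut thus removed peaks of WT and none of SETD2KO-1R.

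The preference for one set over the other varied by library. SETD2KO-1R replicate 1 called SETD2KO-1 specific regions 10.6 points more often than SETD2KO-2 specific ones, and replicate 2 called them 16.1 points less often, its value being −16.1. The WT libraries likewise lay on both sides, at −4.42 and 12.3 points. Among the 8 RPTEC libraries the difference ranged from −17.3 to 6.09 points, and the 2 libraries of a line lay on opposite sides of 0 for SETD2KO-2 and SETD2KO-1R. A total of 50 of the 1711 SETD2KO-1 specific regions (2.92%, 2.22 to 3.83) were called in both SETD2KO-1R libraries and neither WT library, as were 45 of the 1904 SETD2KO-2 specific regions (2.36%, 1.77 to 3.15) and 1.94% of all regions (1.84 to 2.05). The reverse pattern, both WT libraries and neither SETD2KO-1R library, held 110 SETD2KO-1 specific (6.43%) and 81 SETD2KO-2 specific regions (4.25%), next to 4.02% of all regions. None of the other 4 786-O libraries called 509 (29.7%) and 574 (30.1%) of the 2 sets, next to 33.8% of all regions, and at least 1 RPTEC library called 1159 (67.7%) and 1389 (73.0%), next to 64.9% of all regions.

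**Figure D2:**
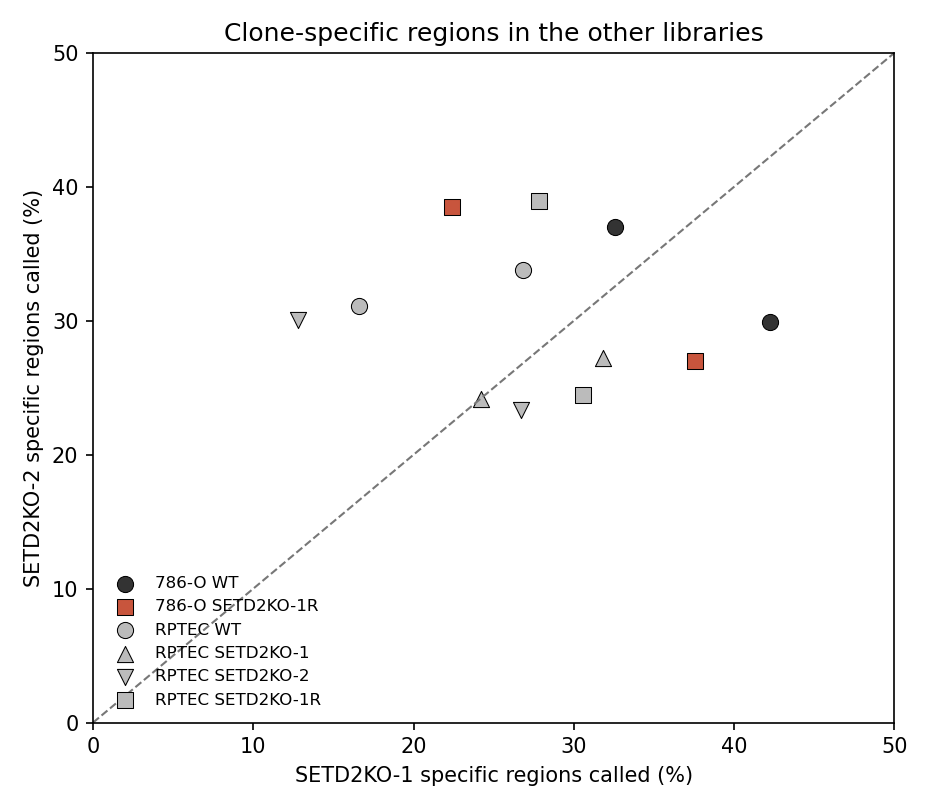
Share of SETD2KO-1 specific regions (horizontal axis, %) and of SETD2KO-2 specific regions (vertical axis, %) called in each of the 4 other 786-O libraries and the 8 RPTEC libraries, with the dashed line at equal shares. The 2 libraries of SETD2KO-1R (red squares) and the 2 of WT (black circles) lie on opposite sides of the line.

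Clone-specific peaks ranked low by score. The score was used as a percentile rank within a list, where 100 is the highest. Where a library had more than 1 peak in a region, its highest rank and its longest peak were taken. Regions called in all 4 libraries had a median length of 796 bp, against 433 and 469 bp for SETD2KO-1 and SETD2KO-2 specific ones. In SETD2KO-1 replicates 1 and 2 the median rank was 34.9 and 37.2 in SETD2KO-1 specific regions and 66.3 and 69.1 in regions shared by all 4 libraries. In SETD2KO-2 it was 33.8 and 39.7 in SETD2KO-2 specific regions and 68.9 and 66.8 in shared ones. Regions called in 1 library of each clone had medians of 37.4, 37.2, 42.6 and 37.5 in the 4 libraries, and regions called in 1 library only had 22.5, 24.1, 27.99 and 28.9. Ranks of 75 or above were held by 251 and 263 of the 1711 SETD2KO-1 specific regions (14.7% and 15.4%) and 210 and 337 of the 1904 SETD2KO-2 specific regions (11.03% and 17.7%). The peaks were short, with medians of 339 and 332 bp in SETD2KO-1 and 374 and 353 bp in SETD2KO-2, against 486 to 591 bp in shared regions. Regions called in 1 library of each clone had similar medians, 354 and 341 bp in SETD2KO-1 and 386 and 341 bp in SETD2KO-2.

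**Figure D3:**
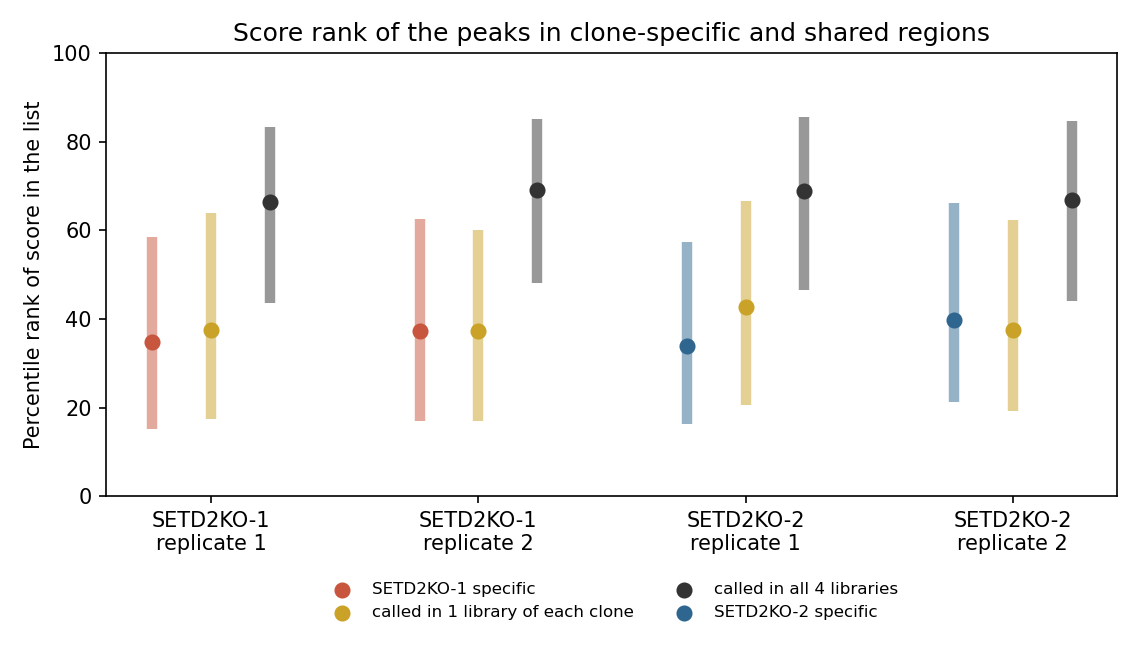
Percentile rank of the score (vertical axis) of each library's highest-ranked peak in a region. Regions are its clone-specific ones, those called in 1 library of each clone and those called in all 4. Points mark medians, and bars run from the lower to the upper quartile. In every library the clone-specific median (33.8 to 39.7) lies below the shared median (66.3 to 69.1).

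A few clone-specific peaks nevertheless stood at the top of both lists of their clone. For SETD2KO-1, the highest was a region of 364 bp in ARGLU1, a gene for a splicing-associated protein, at chr13:106559558-106559921, with ranks above 99.9 in both replicates. It had no peak in the SETD2KO-2, WT or SETD2KO-1R libraries. The region in PPM1G, a protein phosphatase gene (chr2:27384066-27384535), ranked 99.9 and 99.8 and was also called in 1 WT and both SETD2KO-1R libraries. Those in MAP7D3, a microtubule-associated protein, and EIF2S2, a subunit of a translation initiation factor, ranked above 99 in both libraries and were called in 1 WT library each and in neither SETD2KO-1R library. The region in DDX46, an RNA helicase of the spliceosome, was called in 1 WT and 1 SETD2KO-1R library. ACTN4, an actin cross-linking protein, TRIM25, a ubiquitin ligase of antiviral signalling, and RPL32, a protein of the large ribosomal subunit, completed the 8 highest. The RPL32 region (chr3:12839597-12840022; ranks 98.4 and 99.8) was called in both SETD2KO-1R libraries and in neither WT library, and the ACTN4 region in 1 SETD2KO-1R library and neither WT library.

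For SETD2KO-2, the highest region lay in YBX3, a cold-shock domain RNA-binding protein (chr12:10699602-10699911), with ranks of 98.9 and 99.8. It was called in all 4 WT and SETD2KO-1R libraries and in all 8 RPTEC libraries, so that the 2 SETD2KO-1 libraries were the ones without it. SUPT16H, a subunit of the histone chaperone FACT (chr14:21352779-21353089; ranks 98.8 and 99.3), had a peak in 1 WT, both SETD2KO-1R and 6 RPTEC libraries. The region in UBAP2 was called in 1 WT and both SETD2KO-1R libraries. Those in HMG20B, a partner of the LSD1 demethylase complex, SLTM and USP24, a deubiquitinase, were each called in 1 WT and 1 SETD2KO-1R library, and that in ADRM1, a ubiquitin receptor of the proteasome, in 1 SETD2KO-1R library. NBPF26 (ranks 98.9 and 99.6) had no peak there in WT or SETD2KO-1R, and because this gene belongs to a family of near-identical copies its reads may be shared with other members. Of these 16 regions, 2, those in ARGLU1 and NBPF26, were called in none of the WT and SETD2KO-1R libraries.

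The sets differed in how often a region held a gene start, taken as the base where a RefSeq transcript begins. This was so for 104 of 1711 SETD2KO-1 specific regions (6.08%, 5.04 to 7.31) and 40 of 1904 SETD2KO-2 specific regions (2.10%, 1.55 to 2.85), next to 6.12% of all regions. The share was 9.56% in regions shared by all 4 libraries, 7.15% in those called in 1 library of each clone and 3.33% in those called in 1 library only. The same share varied between libraries of 1 clone. In SETD2KO-1, 7.56% and 5.78% of peaks held a gene start, and in SETD2KO-2 6.88% and 4.12%, so the groups overlapped, although SETD2KO-1 was the higher within each replicate number. Replicate 1 was higher than replicate 2 in all 4 786-O lines, and replicate 2 of SETD2KO-2 was the lowest of the 8 786-O libraries. The difference of 3.98 points between the sets became 0.46 when SETD2KO-2 replicate 2 was left out and −1.75 when SETD2KO-1 replicate 1 was, and the part of these libraries in it was not tested further. Of the genes whose starts are shown above, PRKACA encodes a catalytic subunit of protein kinase A, and its region ranked 96.9 in both SETD2KO-1 libraries. SRP68 encodes a protein of the signal recognition particle (ranks 94.5 and 98.1), and MPZL1 a cell surface receptor (96.1 and 95.3). The 3 SETD2KO-2 specific starts shown ranked lower, but each 3 were chosen by rank, from 40 regions with a start against 104. The ranks of all such regions were not compared. The region of CCN2, the gene of connective tissue growth factor, ranked 91.8 and 80.5 and was called in both SETD2KO-1R libraries, that of FAM168B ranked 86.9 and 83.8, and that of DYNC1H1, the heavy chain of cytoplasmic dynein, ranked 91.3 and 71.3 and was called in both WT libraries. The letters GGAC, the core of the most frequent m6A sequence context, were found on the transcribed strand within the first 50 transcribed bases of 33 of the 129 starts in SETD2KO-1 specific regions (25.6%), 13 of the 52 in SETD2KO-2 specific regions, 20.2% of the 1642 in regions called in all 4 libraries and 18.9% of all 35116 starts. On either strand of the window of 300 bases, which includes those 50, they were found in 92.2%, 96.2%, 92.6% and 87.4%. The longer GGACT, which contains GGAC, was found there in 54.3%, 51.9%, 45.3% and 44.2%. On the transcribed strand alone GGACT was found in 32.6%, 28.8%, 24.7% and 25.3% of windows. Of each window 250 bases lie before the start, outside the transcript, so counts over the window do not describe RNA sequence alone.

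**Figure D4:**
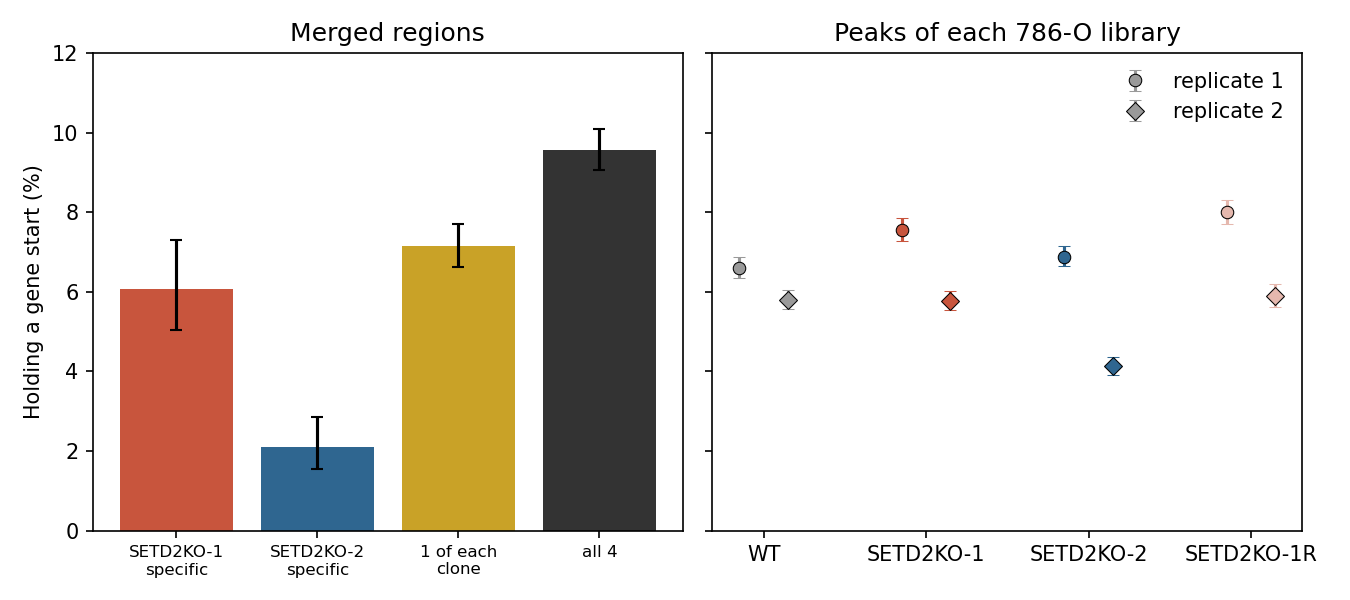
Share of merged regions (left) and of each 786-O library's peaks (right) that hold a gene start (vertical axis, %), with 95% Wilson intervals. SETD2KO-2 specific regions have the lowest bar (2.10%), and SETD2KO-2 replicate 2 has the lowest share among the libraries (4.12%).

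Along the gene body the SETD2KO-1 specific regions were placed much as all regions were, and fewer SETD2KO-2 specific regions lay near the end. Of 1098 SETD2KO-1 specific regions in a single protein-coding gene of known strand, 30.6% lay in the last 20% of the gene body and 21.7% in the first 20%, and of 1222 such SETD2KO-2 specific regions 23.8% and 19.9%. Over all regions these ends held 28.1% and 21.9%, and in shared regions 38.3% and 18.5%. Regions called in 1 library only, at 23.7% and 22.03%, had end shares close to those of SETD2KO-2 specific ones. A protein-coding gene held the midpoint of 81.1% of SETD2KO-1 specific and 79.6% of SETD2KO-2 specific regions, compared with 82.1% of all regions and 85.1% of shared ones, and 10.5% and 11.6% lay in no annotated gene, compared with 9.94% and 7.24%. Median gene body length was 72.3 and 77.9 kb for the 2 sets, 66.3 kb over all regions, 78.2 kb for regions in 1 library only and 53.1 kb for shared regions.

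Every chromosome compared held clone-specific regions of both clones. SETD2KO-1 specific regions made up 2.08% (chromosome 12) to 3.49% (chromosome 3) of a chromosome's regions and SETD2KO-2 specific regions 2.30% (chromosome 21) to 3.66% (chromosome 13). As a share of a chromosome's regions, the widest gap was on chromosome 12, with 52 SETD2KO-1 specific and 87 SETD2KO-2 specific of 2501 regions. In the opposite direction it was on chromosome 3, with 113 and 75 of 3235. In number of regions the gap was wider on chromosome 1, with 154 and 210 of 5827. The share of a library's peaks on a chromosome did not overlap between the clones for 3 of the 23 chromosomes compared (13%), which were 7, 10 and 12, all higher in SETD2KO-2. On chromosome 12 it was 3.89% and 3.77% in SETD2KO-1 and 4.11% and 4.05% in SETD2KO-2, with WT and SETD2KO-1R between 4.11% and 4.45%. On chromosome 7 it was 5.23% and 5.36% against 5.50% and 5.53%. Both clones had a higher share than every WT and SETD2KO-1R library on chromosome 9 (5.92% to 6.21% against 4.48% to 5.04%), chromosome 8 (4.22% to 4.45% against 3.45% to 3.74%), chromosome 13 (1.85% to 2.07% against 1.77% to 1.80%) and chromosome X (2.98% to 3.23% against 2.81% to 2.97%), where they overlapped with each other. Both had a lower share than all of these libraries on chromosome 10 (4.19% to 4.27% against 4.29% to 4.81%), chromosome 11 (3.63% to 4.23% against 4.57% to 4.89%), chromosome 12 and chromosome 17 (5.70% to 6.02% against 6.03% to 6.70%).

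**Figure D5:**
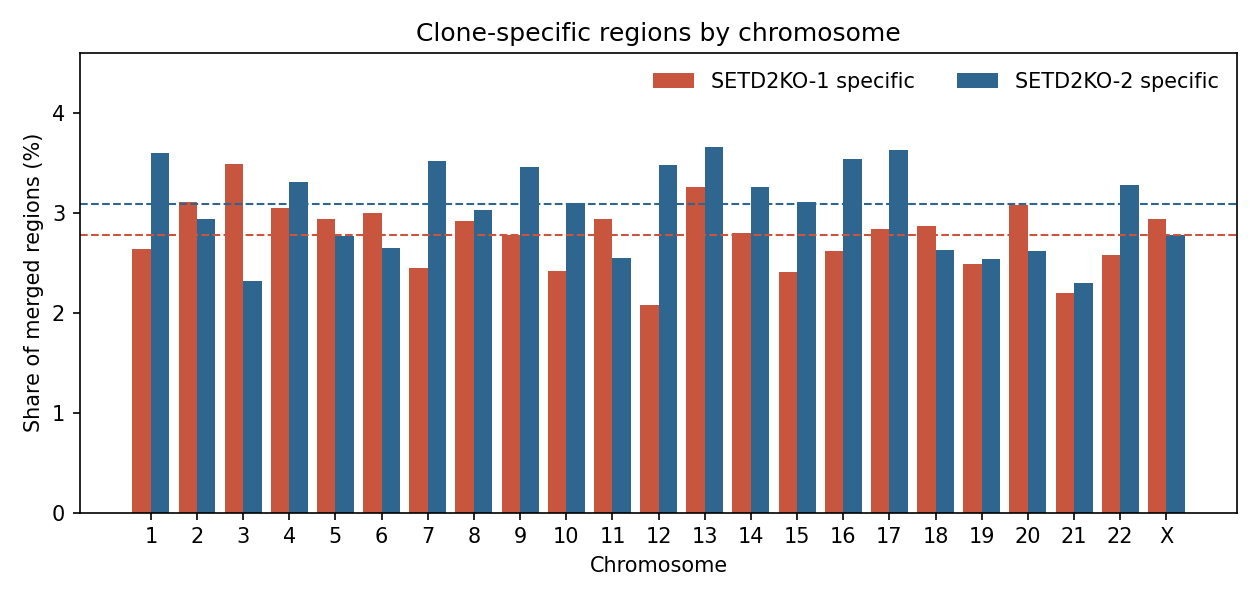
Share of a chromosome's merged regions (vertical axis, %) that was SETD2KO-1 specific or SETD2KO-2 specific, for chromosomes 1 to 22 and X, with dashed lines at the shares over all regions (2.78% and 3.09%). Bars of both clones stay between 2.08% and 3.66% on every chromosome.

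Among 302 windows of 10 Mb with at least 20 regions, SETD2KO-2 specific regions outnumbered SETD2KO-1 specific ones in 149, the reverse held in 118, and 35 had equal numbers. The largest excess of SETD2KO-2, 24 against 5 of 419 regions, lay at 70 to 80 Mb of chromosome 7. This window held 0.54% and 0.56% of the peaks of SETD2KO-1, 0.65% and 0.75% of those of SETD2KO-2, 0.71% and 0.65% of those of WT and 0.54% and 0.70% of those of SETD2KO-1R. GTF2IRD1, a transcription factor gene of that window, contributed 4 regions and had 11 and 16 peaks in SETD2KO-1, 25 and 18 in SETD2KO-2, 24 and 24 in WT and 15 and 14 in SETD2KO-1R. The next windows were 30 to 40 Mb of chromosome 1 (20 against 5) and 60 to 70 Mb of chromosome 16 (20 against 8). In the direction of SETD2KO-1 the windows were 50 to 60 Mb of chromosome 19 (19 against 7), 80 to 90 Mb of chromosome 17 (18 against 6) and 50 to 60 Mb of chromosome 3 (12 against 1).

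Genes were assigned by peak midpoints within gene bodies. Of 11453 protein-coding genes with a peak in any of the 4 libraries, 7473 had one in all 4, 162 (1.41%) had one in both SETD2KO-1 libraries and neither SETD2KO-2 library, and 148 (1.29%) showed the reverse. Most of these rested on few peaks, with exactly 1 in each library for 123 of 162 and 93 of 148 genes. Peaks in WT or SETD2KO-1R were present for 135 and 122 of them, in both SETD2KO-1R libraries for 24.7% and 34.5%, and in both WT libraries for 34.6% and 34.5%. Fewer reads of a transcript and less methylation of it cannot be told apart from these lists, since they hold no expression values.

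The SETD2KO-1 specific gene with the most peaks was LPCAT3, an acyltransferase of phospholipid remodelling, with 2 and 3 peaks in SETD2KO-1, 0 and 1 in WT and 1 and 1 in SETD2KO-1R. RTN4IP1, a mitochondrial protein, had 2 and 2, and TAX1BP1, an autophagy receptor, 1 and 3. TREX1, an exonuclease that degrades cytosolic DNA, and ATRIP, the partner of the ATR kinase, overlap each other on chromosome 3 and shared the same 2 SETD2KO-1 specific regions, with 2 and 2 peaks each. ATRIP also had 3 and 3 peaks in WT and 1 and 1 in SETD2KO-1R. STPG3 had 3 and 1. All 6 were without a peak in SETD2KO-2, and all 6 had a peak in at least 1 SETD2KO-1R library, RTN4IP1 in replicate 2 alone and STPG3 in replicate 1 alone. After LPCAT3, 7 genes tied with 4 peaks over both SETD2KO-1 libraries and 5 were taken by mean score rank. The other two, MROH2A and TMEM178B, both with 2 and 2 peaks, had none in SETD2KO-1R. TMEM178B had 11 and 13 peaks in WT.

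Among SETD2KO-2 specific genes CRLF3, a cytokine receptor-like protein on chromosome 17, was the clearest, with 4 and 4 peaks in SETD2KO-2 and 0 and 0 in SETD2KO-1. It had 3 and 2 peaks in WT and 2 and 3 in SETD2KO-1R, so that among the 786-O lines SETD2KO-1 was the one without a peak, although SETD2KO-1R was derived from it. ACOT7, an acyl-CoA thioesterase, had 5 and 1 peaks in SETD2KO-2, 1 and 2 in WT and 1 and 1 in SETD2KO-1R. CCDC181 had 3 and 3, VMP1, a membrane protein of autophagosome formation, 3 and 2, ARMC6 4 and 1, and INTS12, a subunit of the Integrator complex, 3 and 2.

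Clone-specific regions were spread thinly over many genes. A total of 1321 genes held at least 1 SETD2KO-1 specific region and 1308 at least 1 SETD2KO-2 specific region, 240 of them both, and a gene held at most 4 and 7. KAZN, which encodes a desmosome-associated protein and spans a long body on chromosome 1, held 7 SETD2KO-2 specific regions, with 26 and 32 peaks in SETD2KO-1 and 42 and 30 in SETD2KO-2, groups that overlapped. MICAL3, TAOK1, RERE, LAMA3 and BICD1 held 4 each, and MICAL3 also held 1 SETD2KO-1 specific region. Peak numbers of the clones overlapped for MICAL3 (22 and 25 against 39 and 19), RERE (20 and 16 against 28 and 16) and LAMA3 (15 and 19 against 25 and 15). BICD1, an adaptor of dynein transport, had 12 and 12 peaks in SETD2KO-1 and 19 and 19 in SETD2KO-2, with 16 and 16 in SETD2KO-1R and 10 and 14 in WT. TAOK1, a kinase upstream of p38 signalling, had 7 and 8 against 11 and 10. In SETD2KO-1, RNF213, HIPK2, TANC1 and PTPN3 held 4 specific regions each and INTS1 and CUEDC1 held 3. SETD2KO-2 specific regions were also present in PTPN3 (2), RNF213 (1) and TANC1 (1). Peak numbers overlapped for HIPK2, at 27 and 25 in SETD2KO-1 against 27 and 15, and PTPN3, at 10 and 8 against 10 and 7. CUEDC1 had 9 and 10 against 7 and 3. RNF213, a large ubiquitin ligase, had 23 and 20 peaks in SETD2KO-1 and 17 and 18 in SETD2KO-2. TANC1 had 11 and 11 against 10 and 3, and INTS1, a subunit of the Integrator complex, 6 and 5 against 4 and 1, where replicate 2 of SETD2KO-2 was the low one.

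The number of peaks per gene did not overlap between the clones for 693 genes higher in SETD2KO-1 (6.05%) and 725 higher in SETD2KO-2 (6.33%), near-equal numbers in both directions. Chosen after the values were seen, PAX2, a transcription factor of the renal lineage, showed the largest mean excess for SETD2KO-1 among these genes, with 15 and 14 peaks against 10 and 4, and 8 and 13 in WT. UBE2D2, a ubiquitin-conjugating enzyme, showed the largest for SETD2KO-2, with 7 and 6 peaks against 13 and 17, and 7 and 6 in WT.

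The fixed gene lists held few clone-specific genes. Of 613 genes with a peak over 18 lists, 10 (1.63%) were SETD2KO-1 specific and 6 (0.979%) SETD2KO-2 specific, beside 1.41% and 1.29% of all genes with a peak, and 8 lists held none. No clone-specific gene was found among 20 m6A writers, erasers and readers, 13 H3K36 enzymes, 28 hypoxia targets, 25 epithelial-mesenchymal transition genes, 20 antigen presentation genes, 29 clustered protocadherins and the 1 cancer-testis gene with a peak. METTL3 had 1 peak in SETD2KO-1 replicate 1 and none in the other 3 libraries. Among 29 fatty acid oxidation genes, HADHB and HSD17B4, enzymes of mitochondrial and peroxisomal oxidation, were SETD2KO-1 specific and ACAD11 was SETD2KO-2 specific. Of 50 oxidative phosphorylation genes, COX7C and NDUFA5 were SETD2KO-1 specific, and of 25 cholesterol synthesis genes, DHCR7, which makes the last step to cholesterol, was. DHCR7 had 2 and 1 peaks in SETD2KO-1, 1 and 4 in WT and 2 and 1 in SETD2KO-1R.

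Among 32 interferon-stimulated genes, IFI16, a DNA sensor, and HERC6 were SETD2KO-1 specific, and OASL was SETD2KO-2 specific with 2 and 1 peaks. SESN1, of 23 p53 targets, and H3C2, of 21 replication-dependent histone genes, were SETD2KO-1 specific with 1 peak in each library. CCN2, of 26 immediate early genes, was SETD2KO-2 specific with 1 and 1 peaks. The 217 zinc finger genes of chromosome 19 with a peak included 1 of each kind, ZNF550 with 1 and 2 peaks in SETD2KO-1 and ZNF585A with 2 and 2 in SETD2KO-2. In SETD2KO-1R, ZNF585A had 0 and 1 peaks.

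The 14 genes that the study named as dependent on SETD2 in these cells were chosen on these samples and are not independent evidence. None was clone-specific and 13 had a peak in all 4 libraries, the exception being DNMT3B, a DNA methyltransferase, with 3 and 2 peaks in SETD2KO-1 and 3 and 0 in SETD2KO-2. SLC29A3, a nucleoside transporter, had 7 and 5 peaks in SETD2KO-1 and 8 and 4 in SETD2KO-2, and SERPINH1, a collagen chaperone, 4 and 5 against 5 and 3. LY96, the co-receptor of TLR4, had 3 and 4 against 3 and 3. HM13, a signal peptide peptidase, had 7 and 6 against 7 and 8, and CHPF, an enzyme of chondroitin synthesis, 3 and 5 against 4 and 3. In these 5 genes the peak numbers of the clones overlapped. Peak numbers did not overlap for 3 of the 14 genes, 1 higher in SETD2KO-1 and 2 in SETD2KO-2, beside 6.05% and 6.33% of all genes with a peak. EHHADH, a peroxisomal oxidation enzyme, had 3 and 1 against 5 and 4, ISCA1, an iron-sulfur cluster protein, 1 and 1 against 2 and 2, and ACADVL, a mitochondrial acyl-CoA dehydrogenase, 5 and 4 against 3 and 1. The 14 genes held 0 SETD2KO-1 specific and 3 SETD2KO-2 specific regions, 1 each in HM13, EHHADH and ISCA1.

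In RPTEC, where both knockout clones were derived separately, the same rule gave 2408 SETD2KO-1 specific (4.79%) and 991 SETD2KO-2 specific (1.97%) of 50229 regions. In RPTEC 7 of the 23 chromosomes (30.4%) did not overlap between the clones. The clone numbers of the 2 cell lines have no link, and SETD2KO-1 minus SETD2KO-2 is given in percentage points of a list's peaks. The widest of these gaps were on chromosome 17, at −0.41 points in RPTEC and −0.10 in 786-O, and on X, at 0.32 and −0.06. Chromosomes 12 and 7 followed at −0.23 and −0.16 points, with −0.25 and −0.22 in 786-O, and chromosomes 18, 9 and 2 stood at 0.14, 0.09 and −0.01 points. Chromosome 10 differed the other way in RPTEC, at 0.16 points with overlapping groups, compared with −0.06 points in 786-O.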

How the data were processed

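m6A was profiled by MeRIP-seq of total RNA with an anti-m6A antibody and an E. coli RNA spike-in. The authors' pipeline used STAR for alignment, HTSeq for counting and MACS2 for peaks of each IP library against its Input, on hg38. Each deposited peak carries a score, in whole numbers of unstated scale, which served here for ranks within 1 library. Other value columns held 0 only and were not used. Read depth is unknown.

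Peaks of the 4 lists were merged where they overlapped by at least 1 bp. Genes came from a RefSeq table (GRCh38.p14; 20033 protein-coding genes on the chromosomes) by midpoint within the gene body, and gene starts from its 35116 promoter windows. Exons and region sequences were not analysed here. Calls were tested on simulated data. Peak numbers were compared by an exact permutation test, and shares have 95% Wilson intervals. Named were the 8 highest-ranked regions per clone, the 6 genes with most clone-specific regions and the 6 clone-specific genes with most peaks, and clone-specific members of fixed lists, of which some are not reported here. Members and lists were chosen with earlier results of these data known. Alternatives were the upper 50% of each list, 28934 peaks per library, a minimum peak length of 288 bp, merging within 100 bp, 50% coverage, gene body overlap, each library left out, and a replicate block. Python 3.11 with NumPy, pandas and SciPy was used.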

Additional observations from a re-analysis of the deposited data

How the results depend on the processing

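With each of the 4 libraries left out, a single library of the reduced clone decided the call, and the counts rose by construction, from 1711 to between 3148 and 8534 for SETD2KO-1 specific regions, from 1904 to between 3384 and 11075 for SETD2KO-2 specific regions, from 162 to between 370 and 1047 for SETD2KO-1 specific genes, and from 148 to between 403 and 519 for SETD2KO-2 specific genes. The share of SETD2KO-1 specific among clone-specific regions, 47.3%, then ranged from 22.1% (without SETD2KO-2 replicate 2) to 71.6% (without SETD2KO-1 replicate 1), and the same-clone minus between-clone Jaccard index, −0.0103, from −0.0779 to 0.0906. The log2 difference in peak number ranged from −0.22 to 0.24, and the share of SETD2KO-1 specific regions called in SETD2KO-1R minus WT from −13.0 to −4.76 points, and of SETD2KO-2 specific regions from −3.81 to −0.75 points.

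The upper 50% of each list by score gave 915 SETD2KO-1 specific and 925 SETD2KO-2 specific regions, since fewer peaks entered, and a share of 49.7%. The same number of peaks per library gave a share of 50.7%, and a minimum length of 288 bp gave 45.5%, so which clone had more specific regions depended on the peaks used. The minimum length also turned the SETD2KO-1R minus WT differences to 2.79 and 8.85 points. It removed peaks of WT and none of SETD2KO-1R, whose shortest peak was 288 bp, and the part of this in the turn was not tested. The difference for SETD2KO-2 specific regions was also above 0 with the upper 50% (0.76), equal numbers (3.86) and 50% coverage (1.91). The difference in gene start share, an outcome chosen after seeing the data, moved between −1.75 and 9.1 points over libraries left out. In the paired analysis with a replicate block the log2 difference in peak number was 0.0101 (exact sign-flip p = 1, smallest possible 0.5), made of −0.28 for replicates 1 and 0.30 for replicates 2. Same-numbered libraries were not treated as paired, since replicate 1 minus replicate 2 calls correlated by 0.02 across regions between the clones, but replicate 1 had the higher gene start share and median peak length in all 4 786-O lines. With 2 libraries per clone and no depth, a missing peak cannot be told apart from one under the caller's threshold, and clone and line are the same unit.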
